A study of Mus musculus with 12 samples.

Results

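The neutrophil marker genes S100a8, S100a9, Ly6g and Retnlg, the colony-stimulating factor genes Csf1, Csf2 and Csf3 and the receptor genes Csf3r, Csf2ra and Csf2rb were followed in RNA from 12 mammary tumors. These 10 genes were taken by their symbols, and all 10 were found among the 54532 genes of the count and FPKM tables. The mice were MMTV-Neu animals, in which the promoter of mouse mammary tumor virus drives the Neu (HER2) oncogene in mammary epithelium, so tumors of every group carry the transgene. Once a tumor reached 4 mm in diameter, mice ate powdered chow as control diet, or chow with MSU-42011 or bexarotene at 100 mg per kg of diet, for 10 days. Each group held 4 tumors, and the ages of the mice were not given in the sources used here. Bexarotene is an approved agonist of the retinoid X receptor (RXR), a nuclear receptor, and MSU-42011 is a newer RXR agonist. The question was whether tumors of mice fed either RXR agonist differed from control tumors, or from each other, in these genes.

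Colony-stimulating factors are secreted proteins that make blood cell precursors divide and mature. Csf3 encodes G-CSF, which acts through the receptor Csf3r and drives the production of neutrophils. Csf2 encodes GM-CSF, whose receptor joins the specific alpha chain Csf2ra to the common beta chain Csf2rb, which also serves interleukin-3 and interleukin-5. Csf1 encodes M-CSF, which keeps macrophages alive through the receptor Csf1r. S100a8 and S100a9 encode the calcium-binding pair calprotectin that fills the cytoplasm of neutrophils, Ly6g encodes a surface protein used to identify mouse neutrophils, and Retnlg encodes a resistin-like protein of neutrophils and bone marrow. In mammary tumors of mice, neutrophils and related immature myeloid cells are known to respond to G-CSF and GM-CSF made by the tumor.

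Counted reads per tumor ran from 16583413 to 25925027 (median 19342536), so that 3 counts, taken as the floor of detection, corresponded to between 0.111 and 0.184 normalized CPM depending on the tumor. The floor covers counting error only, whereas the SDs, SEs and intervals given below include the spread between tumors. Normalized CPM is the count relative to the total count of the tumor times edgeR's TMM factor, on the usual CPM scale, and FPKM is the authors' value per gene length and library size. Genes with too few counts were set aside by edgeR's filterByExpr, which left 15504 genes for its quasi-likelihood F test with Benjamini-Hochberg adjustment. Of the 10 genes, 5 passed (S100a8, Csf1, Csf3r, Csf2ra and Csf2rb) and 5 did not (S100a9, Ly6g, Retnlg, Csf2 and Csf3). Bexarotene replicate 1 stood apart from the other tumors, at -115 on the first principal component (33.6% of the variance) against -16.2 to 34.2 for the rest, and values that rest on it are therefore also given without it. Summed markers of mammary epithelium (Epcam, Krt8, Krt18 and 4 others) reached between 1606 and 3023 FPKM in every tumor, with the lowest sum in bexarotene replicate 1. The tumors are bulk samples, so fewer cells of a type and less RNA per cell cannot be told apart. Each sample is 1 tumor, and p-values measure the spread between these tumors.

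Per length, the levels of the 10 genes fell into tiers, given here from the highest down. Csf1 (median 21.5 FPKM over the 12 tumors) and Csf2ra (median 20.01 FPKM) were the highest, at percentiles 65.9 and 64.2 of the genes tested, and Csf1 was above Csf2ra in 10 of 12 tumors. Csf2ra was above Csf2rb (median 2.39 FPKM) in all 12 tumors. Csf2rb and Csf3r (median 2.02 FPKM) were not separated by their spread, since Csf2rb was the higher of the pair in 8 tumors and the lower in 4. Csf3r exceeded S100a8 (median 0.770 FPKM) in 11 of 12 tumors. S100a8 and S100a9 (median 0.407 FPKM) exchanged places from tumor to tumor, with S100a8 higher in 7 and lower in 5. Csf3 (median 0.0413 FPKM), and Ly6g, Retnlg and Csf2, each with a median of 0 FPKM, were at the limit of detection. The length behind the authors' FPKM was shorter than the listed gene length for Csf1 (1988 against 5281 bases) and Csf2rb (1956 against 7277 bases), so the order of neighbors depends on that choice.

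The neutrophil markers were close to the limit of detection in every group. S100a8 (chr3:90668978-90670035, plus strand) and S100a9 (chr3:90692632-90695721, minus strand) lie near each other on chromosome 3, in the cluster of S100 genes. Over the 12 tumors together, S100a8 collected 102 reads and S100a9 collected 79. S100a8 had 17, 20, 0 and 8 counts in control replicates 1 to 4, 5, 1, 14 and 10 counts in MSU-42011 replicates 1 to 4, and 15, 9, 3 and 0 counts in bexarotene replicates 1 to 4. Each group thus had tumors both with and almost without S100a8, and the groups overlapped. Mean S100a8 was 0.575 ± 0.487 CPM (SD, n = 4) in control tumors, 0.378 ± 0.293 CPM in MSU-42011 tumors and 0.282 ± 0.254 CPM in bexarotene tumors. The log2 fold change of S100a8 was -0.57 (SE 0.97, 95% confidence interval -2.69 to 1.54) for MSU-42011 against control, with an edgeR adjusted p of 1.00. In bexarotene tumors it was -0.94 against control (SE 0.98, interval -3.07 to 1.19, edgeR adjusted p = 0.921), and -1.49 (interval -3.90 to 0.92) without bexarotene replicate 1. Between the agonists it was 0.37 (SE 1.00, interval -1.81 to 2.55, edgeR adjusted p = 0.997), higher in MSU-42011 tumors, and 0.92 without that tumor. These intervals span changes of several fold in both directions.

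S100a9 showed the lowest counts in the MSU-42011 group. It had 7, 20, 1 and 19 counts in control replicates 1 to 4, 2, 3, 4 and 2 counts in MSU-42011 replicates 1 to 4, and 5, 2, 9 and 5 counts in bexarotene replicates 1 to 4. Control replicates 1, 2 and 4 were above every MSU-42011 tumor, and control replicate 3, with 1 count, was below all of them. Mean S100a9 was 0.559 ± 0.406 CPM in control, 0.148 ± 0.0617 CPM in MSU-42011 and 0.256 ± 0.148 CPM in bexarotene tumors (SD, n = 4 each). The exact two-sided permutation test on log2(CPM + 0.5) gave p = 0.143 for MSU-42011 against control, p = 0.314 for bexarotene against control and p = 0.286 between the agonists, where 0.0286 is the smallest p that 4 tumors against 4 allow. S100a9 missed the filter, so its fit was taken from the model without a filter on low counts. There the log2 fold change was -1.90 (SE 0.79, interval -3.58 to -0.22, edgeR adjusted p = 0.948) for MSU-42011 and -1.14 (SE 0.75, interval -2.74 to 0.45, edgeR adjusted p = 0.738) for bexarotene, each against control. The first interval lies below 0 but the gene did not pass the adjusted test. Without control replicate 3 the exact permutation p of S100a9 in MSU-42011 tumors against control was 0.0286, and without any 1 of the other 7 tumors it was between 0.171 and 0.257.

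Ly6g and Retnlg were all but absent. Ly6g (chr15:75155240-75159126, plus strand) had 3 counts in control replicate 2 and 0 counts in the other 11 tumors. Retnlg (chr16:48872621-48874496, plus strand) had 7 counts in control replicate 2, 1 count in each of control replicate 4, MSU-42011 replicate 1 and bexarotene replicate 1, and 0 counts in the other 8 tumors. Control replicate 2 thus had the most reads of Ly6g, Retnlg and S100a9, and no fold change is given for Ly6g or Retnlg because their counts are at or under the floor in nearly all tumors.

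**Figure D1:**
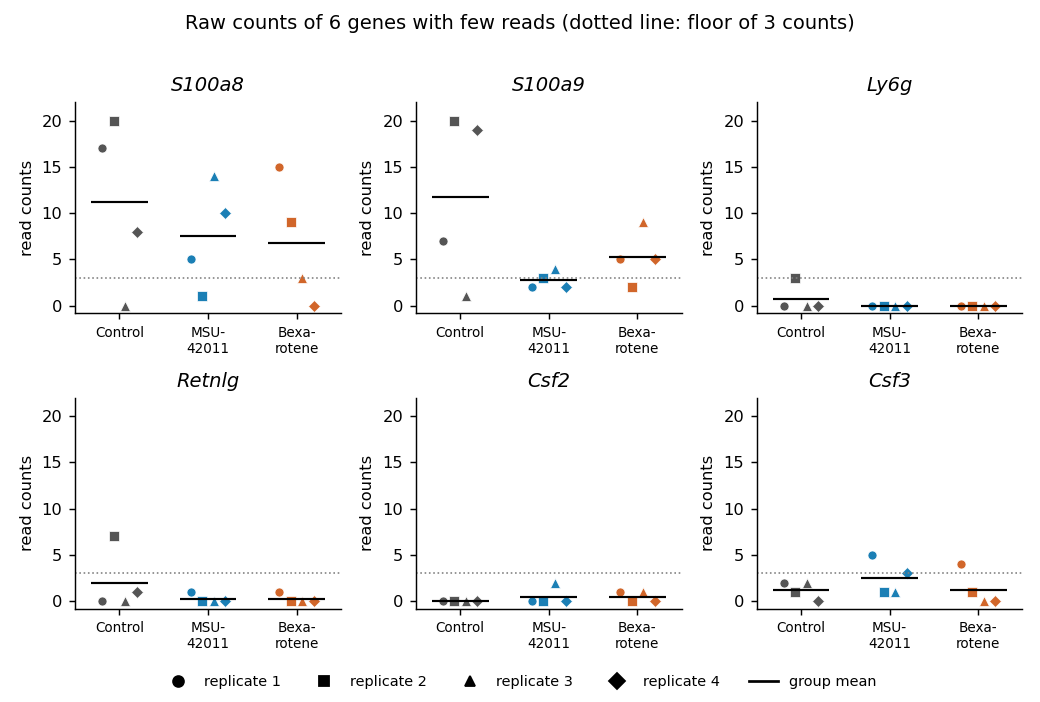
Raw read counts (vertical axis) of S100a8, S100a9, Ly6g, Retnlg, Csf2 and Csf3 in the 4 tumors of each group, 1 point per tumor with its shape giving the replicate number, a bar at the group mean and a dotted line at the floor of 3 counts. No tumor exceeds 20 counts of any of these genes, S100a8 spans 0 to 20 counts within the control group, and Ly6g has reads only in control replicate 2.

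The 250 bases before the RefSeq start of a gene (GRCm38.p6) were searched on both strands for short motifs. These were TATAAA, the TATA box, GAGGAA, the core bound by the myeloid factor PU.1, TTGCNNAA, a form of the C/EBP site, GGGA followed by any base and TTTCC, a form of the NF-kB site, and AGGTCA, the half-site to which RXR dimers bind. Windows were found for 8 of the 10 genes. The windows of the calprotectin pair are shown because both genes are textbook neutrophil markers, and capitals mark matches. Only the bases before the outermost transcript start in GENCODE M21 are shown for S100a8 (chr3:90668821-90668977), and S100a9 covers chr3:90695722-90695971, both written 5′ to 3′ on the strand of the gene.
S100a8: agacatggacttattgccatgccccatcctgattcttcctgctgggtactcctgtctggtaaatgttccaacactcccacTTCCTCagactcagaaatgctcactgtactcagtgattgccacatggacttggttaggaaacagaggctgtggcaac
S100a9: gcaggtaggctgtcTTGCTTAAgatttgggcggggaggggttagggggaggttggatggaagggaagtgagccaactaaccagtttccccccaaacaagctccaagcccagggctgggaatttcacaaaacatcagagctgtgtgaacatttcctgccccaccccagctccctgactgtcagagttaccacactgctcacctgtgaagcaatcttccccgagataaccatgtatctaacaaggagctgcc
S100a8 holds a GAGGAA match on the opposite strand between 170 and 165 bases before its RefSeq start, another between 36 and 31 bases and a TATA box between 30 and 25 bases, the last pair inside the stretch that is not shown. S100a9 holds a TTGCNNAA match between 236 and 229 bases before its start. Of all 32851 windows, 23.3% held GAGGAA, 12.4% held TATAAA and 9.56% held TTGCNNAA. AGGTCA was found in the windows of Ly6g and Retnlg among the 8, against 14.02% of all windows. Such matches describe letters and are not evidence of binding.

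Other genes of the neutrophil were read from a list of 36. Of these, 3 (Cxcr1, Ctsg and Stfa2) had no read in any tumor and 10 had at most 3 counts in every tumor. Those 10 included the granule genes Mpo (myeloperoxidase), Elane (neutrophil elastase), Ngp and Camp (cathelicidin), and the chemokine receptor Cxcr1. Other genes of the list were expressed, so it was not silent as a whole. Ltf, Pglyrp1 and Padi4 were above the floor in all 12 tumors, with medians of 51.8, 18.5 and 1.17 FPKM. Prtn3 was above the floor in 9 tumors. Which cells made this RNA was not tested. The neutrophil chemokine receptor Cxcr2 had 11 counts in control replicate 2 and 0 to 4 counts elsewhere. The summed CPM of the list was carried by Lcn2 (lipocalin 2), which made up 88.9% of it and which epithelial cells also make. Of the 36 genes, 13 passed the filter, with a median log2 fold change of -0.20 in MSU-42011 and -0.33 in bexarotene tumors relative to control, against medians of 0.0016 and 0.030 over all genes tested. Of the 13, 6 were higher and 7 lower in MSU-42011 tumors, and 4 were higher and 9 lower in bexarotene tumors. None of the 13 had an edgeR adjusted p under 0.05. In each of these comparisons 2 had an unadjusted p under 0.05, against 1.99% of all genes tested for MSU-42011 and 6.44% for bexarotene. Without bexarotene replicate 1 the bexarotene median was -0.58, and Lrg1 took the place of Lcn2 beside Cd177 among the genes with an unadjusted p under 0.05.

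By the smallest p of any difference, Cd177, Lrg1 and Lcn2 led the list. Cd177, a surface protein of neutrophils, was at 10.04 to 16.2 CPM in bexarotene tumors and at 15.0 to 65.0 CPM in control tumors, with a log2 fold change of -1.60 (SE 0.55, edgeR adjusted p = 0.762). Its log2 fold change was 0.11 (SE 0.53) for MSU-42011 against control and 1.71 (SE 0.55, edgeR adjusted p = 0.997) for MSU-42011 against bexarotene. The median of Cd177 was 13.7 FPKM, whereas Ly6g, Mpo and Elane each had a median of 0 FPKM. Which cells made the Cd177 RNA was not tested. Lcn2 had a log2 fold change of -0.85 (SE 0.37) for MSU-42011 and -0.89 (SE 0.37) for bexarotene against control, with edgeR adjusted p of 1.00 and 0.762. Lrg1, a secreted glycoprotein made by neutrophils and by liver and endothelium, ran from 7.84 to 220 CPM in control tumors and from 3.85 to 14.5 CPM in MSU-42011 tumors (log2 fold change -2.87, SE 1.03, edgeR adjusted p = 1.00). The highest control values of Cd177, Lcn2 and Lrg1 were all in control replicate 2, the tumor that also had the reads of Ly6g and most of those of Retnlg.

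Among the colony-stimulating factors, only Csf1 was expressed above the limit of detection in every tumor. Csf2 (chr11:54247271-54249667, minus strand) had 2 counts in MSU-42011 replicate 3, 1 count in each of bexarotene replicates 1 and 3, and 0 counts in the other 9 tumors. Part of its transcript overlaps the antisense gene Gm12223. Csf3 (chr11:98701263-98703629, plus strand) had 2, 1, 2 and 0 counts in control replicates 1 to 4, 5, 1, 1 and 3 counts in MSU-42011 replicates 1 to 4, and 4, 1, 0 and 0 counts in bexarotene replicates 1 to 4. RNA of G-CSF and GM-CSF was thus at most 5 counts in any of the 12 tumors, and a difference between groups was not detectable at this depth.

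Csf1 (chr3:107741048-107760469, minus strand) held a narrow range in all but 1 tumor. Csf1 was at 41.1, 43.1, 38.5 and 44.2 CPM in control replicates 1 to 4. It was at 33.9, 45.3, 43.2 and 42.5 CPM in MSU-42011 replicates 1 to 4. In the bexarotene group it was at 133 CPM in replicate 1, and at 47.9, 43.9 and 34.8 CPM in replicates 2 to 4. Bexarotene replicate 1 was thus at 2.77-fold the level of the next tumor, while the other 3 bexarotene tumors overlapped the control tumors. Over the 11 other tumors, the SD of Csf1 was 0.16 on the log2 scale, against a median of 0.29 for all genes tested.

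For MSU-42011 against control, Csf1 had a log2 fold change of -0.016 (SE 0.34, interval -0.75 to 0.71, edgeR adjusted p = 1.00). The log2 fold change in bexarotene tumors was 0.64 (SE 0.34, interval -0.092 to 1.37, edgeR adjusted p = 0.821), and without bexarotene replicate 1 it was 0.017 (SE 0.14, interval -0.28 to 0.31). MSU-42011 and bexarotene tumors differed by -0.66 (SE 0.34, interval -1.39 to 0.076, edgeR adjusted p = 0.997), and by -0.034 (interval -0.33 to 0.26) without that tumor. Csf1 had exact permutation p values of 0.886, 0.514 and 0.371 in these 3 comparisons with all tumors. The promoter window of Csf1 (chr3:107760470-107760719, minus strand, GRCm38.p6, RefSeq) is shown because Csf1 was the most expressed of the 10 genes, with its NF-kB type match in capitals.
Csf1: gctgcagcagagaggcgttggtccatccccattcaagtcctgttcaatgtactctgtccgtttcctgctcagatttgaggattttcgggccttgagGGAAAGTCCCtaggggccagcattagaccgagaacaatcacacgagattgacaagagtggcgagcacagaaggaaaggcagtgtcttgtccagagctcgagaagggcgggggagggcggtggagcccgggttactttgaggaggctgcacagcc
The match lies on the opposite strand between 154 and 145 bases before the start, and 0.356% of all windows held this motif. Csf1 was the only one of the 8 genes with it.

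The receptor of M-CSF, Csf1r, and its other ligand Il34 showed the same tumor at the top. Csf1r was at 68.6, 63.5, 27.7 and 46.7 CPM in control replicates 1 to 4, and at 42.1, 39.5, 68.1 and 24.6 CPM in MSU-42011 replicates 1 to 4. In bexarotene replicates 1 to 4, Csf1r was at 222, 46.4, 39.9 and 27.3 CPM. The log2 fold change of Csf1r for bexarotene against control was 0.70 (SE 0.59, edgeR adjusted p = 0.897) with all tumors and -0.45 (SE 0.35, edgeR adjusted p = 0.978) without bexarotene replicate 1. Il34 was at 20.5 CPM in bexarotene replicate 1 and between 1.94 and 11.97 CPM in the other 11 tumors. The transcripts of Csf1r share 13.9% of their 75-base stretches with Hmgxb3, an overlapping gene on the other strand.

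Csf2ra, the alpha chain of the GM-CSF receptor (chr19:61224402-61228418, minus strand), was the only gene of the 10 whose values in bexarotene tumors did not overlap those in control tumors. Csf2ra was at 35.8, 38.8, 26.7 and 34.9 CPM in control replicates 1 to 4. It was at 40.0, 32.1, 34.1 and 37.0 CPM in MSU-42011 replicates 1 to 4, and at 70.3, 40.0, 40.7 and 39.4 CPM in bexarotene replicates 1 to 4. The lowest bexarotene tumor, replicate 4, lay just above the highest control tumor, replicate 2. On the scale of FPKM the groups overlapped, with 14.6 to 20.02 FPKM in control tumors and 20.01 to 39.7 FPKM in bexarotene tumors.

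Between bexarotene and control tumors, Csf2ra had a log2 fold change of 0.48 (SE 0.19, interval 0.068 to 0.90, edgeR adjusted p = 0.762). Means were 47.6 ± 15.1 CPM in bexarotene and 34.1 ± 5.16 CPM in control tumors (SD, n = 4 each), and the exact two-sided permutation p was 0.0286, the smallest possible. Without bexarotene replicate 1 the log2 fold change was 0.23 (SE 0.13, interval -0.059 to 0.52, edgeR adjusted p = 0.978), and without control replicate 3, the lowest control tumor, it was 0.38. The exact permutation p was then 0.0571 and 0.171. For MSU-42011 against control the log2 fold change of Csf2ra was 0.071 (SE 0.19, interval -0.34 to 0.48, edgeR adjusted p = 1.00). Between MSU-42011 and bexarotene it was -0.41 (SE 0.19, interval -0.83 to 0.0025, edgeR adjusted p = 0.997, exact permutation p = 0.0857), and -0.16 (interval -0.45 to 0.13) without bexarotene replicate 1. The promoter window of Csf2ra (chr19:61228419-61228668, minus strand, GRCm38.p6, RefSeq) is given because of this separation, and its last 11 bases are transcribed in the longest GENCODE model.
Csf2ra: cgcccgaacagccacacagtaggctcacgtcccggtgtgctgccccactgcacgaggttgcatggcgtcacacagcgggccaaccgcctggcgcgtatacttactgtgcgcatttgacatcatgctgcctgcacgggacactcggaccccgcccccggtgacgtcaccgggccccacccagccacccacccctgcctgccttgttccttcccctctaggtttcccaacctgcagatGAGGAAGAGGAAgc
Capitals mark a pair of adjoining GAGGAA matches between 14 and 3 bases before the start. AGGTCA was not among the letters of this window.

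Csf3r, the receptor of G-CSF (chr4:126024550-126044440, plus strand), varied widely inside every group. Csf3r was at 4.69, 5.21, 1.60 and 2.54 CPM in control replicates 1 to 4. It was at 4.62, 3.76, 6.66 and 1.59 CPM in MSU-42011 replicates 1 to 4, and at 10.04, 6.20, 3.54 and 1.90 CPM in bexarotene replicates 1 to 4. The 3 groups overlapped over most of their range. The log2 fold change of Csf3r was 0.24 (SE 0.55, interval -0.96 to 1.44, edgeR adjusted p = 1.00) for MSU-42011 against control. For bexarotene it was 0.63 (SE 0.55, interval -0.57 to 1.83, edgeR adjusted p = 0.904), and 0.15 (interval -1.01 to 1.31) without bexarotene replicate 1. Between the agonists it was -0.39 (SE 0.55, interval -1.58 to 0.80, edgeR adjusted p = 0.997), and 0.092 without bexarotene replicate 1.

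Csf2rb, the common beta chain (chr15:78325752-78353847, plus strand), was the most variable of the 5 genes tested besides S100a8, with an SD of 1.22 on the log2 scale that exceeded that of 96.3% of all genes tested. Csf2rb was at 5.64, 11.5, 3.795 and 3.58 CPM in control replicates 1 to 4. It was at 3.30, 22.7, 7.85 and 2.43 CPM in MSU-42011 replicates 1 to 4, and at 20.2, 5.87, 2.81 and 1.29 CPM in bexarotene replicates 1 to 4. MSU-42011 replicate 2 and bexarotene replicate 1 were the highest of all tumors, and the groups overlapped. For MSU-42011 against control the log2 fold change of Csf2rb was 0.56 (SE 0.84, interval -1.26 to 2.39), and it was -0.44 without MSU-42011 replicate 2. For bexarotene it was 0.31 (SE 0.84, interval -1.51 to 2.13), and -0.87 without bexarotene replicate 1. Between the agonists it was 0.25 (SE 0.83, interval -1.56 to 2.07, edgeR adjusted p = 0.997), and -0.74 or 1.43 without 1 or the other of these tumors. The edgeR adjusted p of Csf2rb against control was 1.00 for MSU-42011 and 0.971 for bexarotene.

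The mouse has a second beta chain gene, Csf2rb2, which is specific for interleukin-3 and lies beside Csf2rb on chromosome 15. The transcripts of Csf2rb share 7.15% of their 75-base stretches with those of Csf2rb2, so part of the reads of each could have been counted for the other or left out. The ratio of Csf2rb to Csf2rb2 counts was between 1.62 and 3.28 (median 2.27) in 11 tumors. In MSU-42011 replicate 2 it was 37.5, from 375 counts of Csf2rb and 10 of Csf2rb2. The high Csf2rb of that tumor was thus not accompanied by Csf2rb2, whereas in bexarotene replicate 1 both were high, at 548 and 306 counts. Csf2rb2 had log2 fold changes of -0.38 (SE 0.77, edgeR adjusted p = 1.00) for MSU-42011 and 0.81 (SE 0.76, edgeR adjusted p = 0.912) for bexarotene relative to control, and the latter was -0.62 without bexarotene replicate 1. For the other genes among the 10, at most 3.17% of the stretches occurred in transcripts of other genes.

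**Figure D2:**
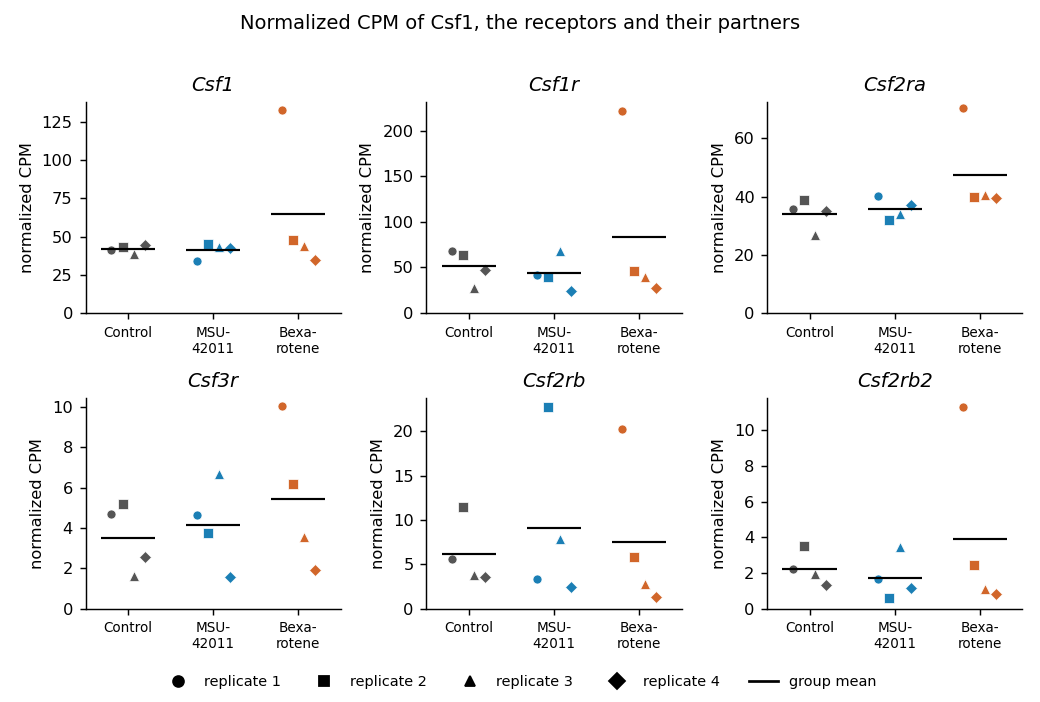
Normalized CPM (vertical axis, from 0) of Csf1, Csf1r, Csf2ra, Csf3r, Csf2rb and Csf2rb2 in the 4 tumors of each group, 1 point per tumor with its shape giving the replicate number and a bar at the group mean. Bexarotene replicate 1 is the highest tumor for all of these genes except Csf2rb, where MSU-42011 replicate 2 reaches 22.7 CPM while its Csf2rb2 is at 0.606 CPM.

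In the comparisons across all genes, none of the 5 genes tested was called. For MSU-42011 against control, 0 of 5 had an edgeR adjusted p under 0.05 (0% of the 15504 genes tested), 0 of 5 had an unadjusted p under 0.05 (background 1.99%), and in 0 of 5 the groups did not overlap (background 1.97%). For bexarotene against control, 0 of 5 passed the adjusted threshold (background 0%), and Csf2ra was the 1 gene of 5 with an unadjusted p under 0.05 (background 6.44%) and the 1 of 5 without overlap (background 2.03%). For MSU-42011 against bexarotene the counts were 0 of 5 by adjusted p (background 0%), by unadjusted p (background 3.95%) and by overlap (background 1.17%). In the test for any difference among the 3 groups, the edgeR adjusted p was 0.998 for all 5 genes and none had an unadjusted p under 0.05, against a background of 4.24% of genes unadjusted and 0% after adjustment. DESeq2 with its filter on Cook's distance called 1, 6 and 25 genes in these 3 comparisons, none of them among the 10. The comparisons share the control or the bexarotene tumors, so their values are not independent.

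**Figure D3:**
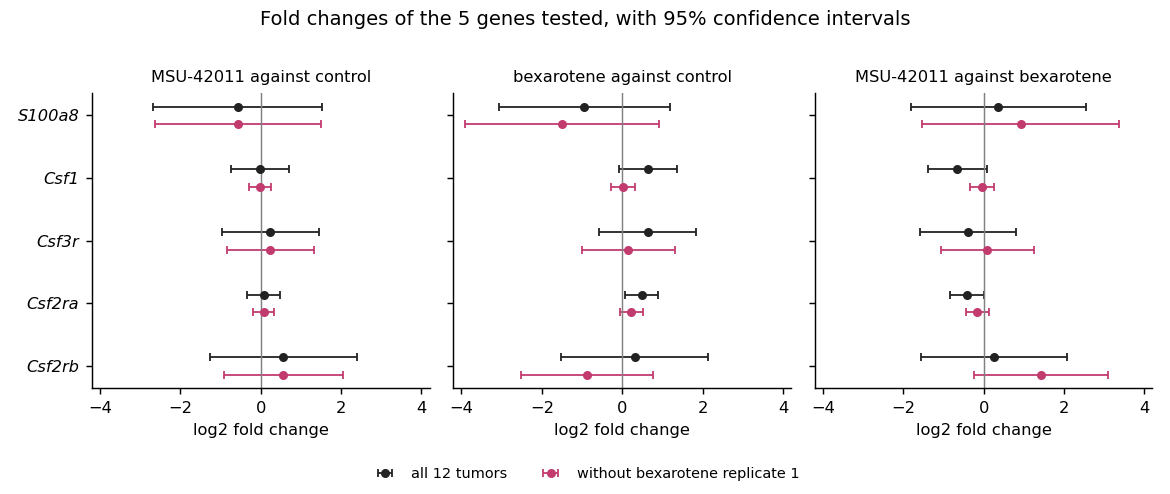
Log2 fold changes (horizontal axis) of S100a8, Csf1, Csf3r, Csf2ra and Csf2rb in the 3 comparisons, with 95% confidence intervals from edgeR's fit as bars, for all 12 tumors in black and without bexarotene replicate 1 in magenta. The interval of Csf2ra for bexarotene against control, 0.068 to 0.90, is the only one that lies wholly on 1 side of 0, and without that tumor it runs from -0.059 to 0.52.

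Genes that act on or after these factors were read from fixed lists. Of 12 inducers and neutrophil attractants, Il17a and Il17f had no read in any tumor, Cxcl3 had at most 1 count, and 5 passed the filter. The neutrophil chemokine Cxcl1 was at 1.31 to 3.98 CPM in control, 0.909 to 3.79 CPM in MSU-42011 and 1.29 to 5.01 CPM in bexarotene tumors, with edgeR adjusted p of 1.00 and 0.911 for the agonists in that order. Cxcl2 had at most 13 counts and Cxcl5 at most 15 counts in a tumor. None of the 5 had an unadjusted p under 0.05 in any comparison. Their median log2 fold change was -0.025 for MSU-42011 and 0.38 for bexarotene against control, and the latter was 0.066 without bexarotene replicate 1. In the fit without a filter, Cxcl5 had a log2 fold change of -3.64 (SE 1.48, interval -6.77 to -0.52, edgeR adjusted p = 0.792) between MSU-42011 and bexarotene tumors, and -2.70 (interval -6.07 to 0.67) without bexarotene replicate 1, which held 15 of its counts. All 13 genes of receptor signalling passed the filter, with medians of 0.024 and 0.029, the latter being -0.053 without bexarotene replicate 1. Among them Socs3, a feedback inhibitor of cytokine receptors, was at 33.8 CPM in bexarotene replicate 1 and at 1.47 to 9.54 CPM in the other tumors (log2 fold change between MSU-42011 and bexarotene -2.39, SE 0.76, edgeR adjusted p = 0.997), and without that tumor no gene of receptor signalling had an unadjusted p under 0.05.

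Of 8 transcription factors of granulocytes, 6 passed the filter. Cebpb and Cebpd, which encode C/EBP factors, had log2 fold changes of -0.47 (SE 0.19) and -1.05 (SE 0.48) for MSU-42011 against control, both with an unadjusted p under 0.05 and an edgeR adjusted p of 1.00. Such an unadjusted p was found for 1.99% of all genes tested. Cebpe, needed for late maturation of granulocytes, and Gfi1 did not pass. Of 11 other haematopoietic cytokines and receptors, 7 passed, and Il3ra, the alpha chain that pairs with Csf2rb to bind interleukin-3, was at 28.3 CPM in bexarotene replicate 1 and at 2.51 to 7.44 CPM elsewhere. Il3ra had an unadjusted p under 0.05 between bexarotene and control tumors (log2 fold change 1.32, SE 0.57, edgeR adjusted p = 0.762), against 6.44% of all genes tested. Without bexarotene replicate 1, Il3ra did not. Il3 had no read in any tumor.

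All 4 receptors of calprotectin passed the filter, and Tlr4 had log2 fold changes of 0.29 (SE 0.42) and -0.028 (SE 0.42) against control for MSU-42011 and bexarotene, and the latter was -0.29 without bexarotene replicate 1. No gene of that list had an unadjusted p under 0.05 in any comparison. Of 14 other S100 genes, 8 passed, with a median log2 fold change of -0.19 for MSU-42011 and -0.095 for bexarotene relative to control, the latter being -0.050 without bexarotene replicate 1. S100a16 was the 1 gene of these with an unadjusted p under 0.05 for MSU-42011 (log2 fold change -0.22, SE 0.090, edgeR adjusted p = 1.00). The share over all genes tested was 1.99%.

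Across the 12 tumors, 9 pairs of genes were compared on log2(CPM + 0.5), and no Pearson or Spearman correlation had an adjusted p under 0.05. S100a8 and Csf3r had r = 0.61 (permutation p = 0.0382, adjusted over the 9 pairs 0.115) and rho = 0.68 (permutation p = 0.0176, adjusted 0.0790). Without the 2 tumors farthest from the median of S100a8, r was 0.37. Csf3r and Csf2rb had r = 0.69 (permutation p = 0.0135, adjusted 0.0608) and rho = 0.71 (permutation p = 0.0112, adjusted 0.0790), and r = 0.52 without the 2 farthest tumors. Csf1 and Csf1r had r = 0.84 (permutation p = 0.0123, adjusted 0.0608) and rho = 0.41 (permutation p = 0.191, adjusted 0.574). Without bexarotene replicate 1 the r of Csf1 and Csf1r was 0.35, so that the relation rests on this tumor.

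After the mean of each group was subtracted, these 3 pairs had permutation p adjusted over 9 pairs of 0.0202 (S100a8 and Csf3r, r = 0.75), 0.0202 (Csf3r and Csf2rb, r = 0.74) and 0.0185 (Csf1 and Csf1r, r = 0.85). Their rho was 0.76 (adjusted 0.0260), 0.80 (adjusted 0.0260) and 0.58 (adjusted 0.157). These permutations treat the centered values as exchangeable, although 3 means were estimated from the same tumors. Bexarotene replicate 1 is included in the centered values, which were not computed without it. Without that tumor and uncentered, r was 0.62 (S100a8 and Csf3r, adjusted permutation p = 0.289), 0.57 (Csf3r and Csf2rb, adjusted 0.289) and 0.35 (Csf1 and Csf1r, adjusted 0.441). S100a8 and S100a9, the subunits of 1 protein complex, had r = 0.37 (permutation p = 0.230, adjusted 0.414) and rho = 0.35 (permutation p = 0.268, adjusted 0.586). Csf3, the ligand, had r = 0.22 with Csf3r (permutation p = 0.503, adjusted 0.565) and r = 0.18 with S100a8 (permutation p = 0.591, adjusted 0.591), at counts near the floor. Csf2ra and Csf2rb, the chains of 1 receptor, had r = 0.29 (permutation p = 0.365, adjusted 0.469) with a rho of -0.20 (permutation p = 0.544, adjusted 0.586). S100a8 with Retnlg and with Ly6g had r = 0.44 and r = 0.43 (adjusted permutation p 0.333 and 0.469).

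**Figure D4:**
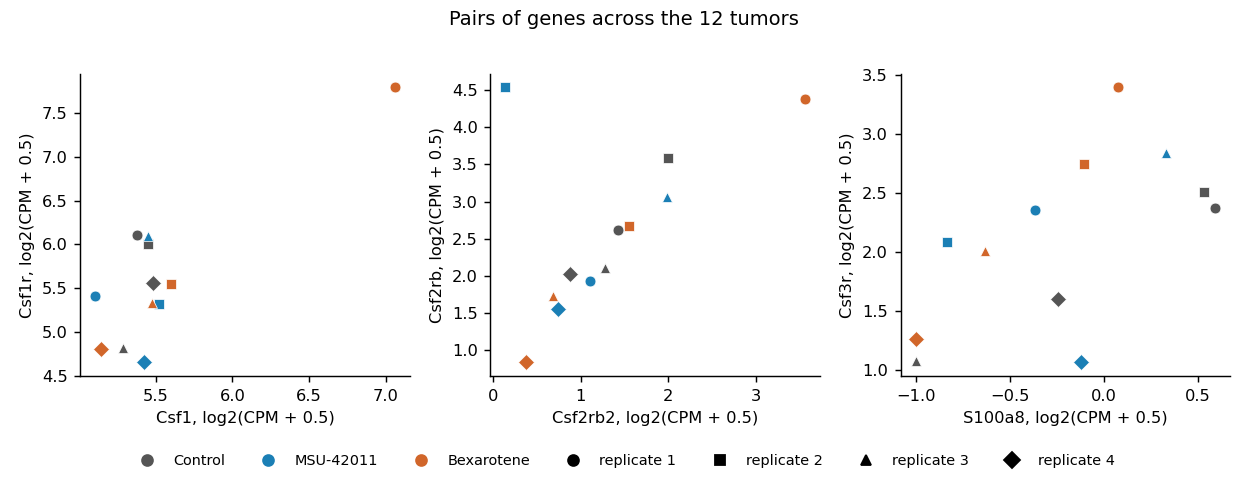
Log2(CPM + 0.5) of Csf1r against Csf1, Csf2rb against Csf2rb2 and Csf3r against S100a8, 1 point per tumor, colored by group with its shape giving the replicate number. Bexarotene replicate 1 lies far from the other 11 tumors in the first panel (r = 0.84 with it, 0.35 without it), and MSU-42011 replicate 2 lies far from the line of the others in the second.

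The genes most alike in pattern were taken by Pearson's r of log2 CPM over the 12 tumors, as a description. For Csf3r these were Rasal3 (r = 0.96), A130077B15Rik (r = 0.93) and Irf8 (r = 0.92), and without bexarotene replicate 1 the r of Rasal3 was 0.94 and that of Irf8 was 0.93. Irf8 encodes a transcription factor of monocytes and dendritic cells. For Csf2rb the nearest genes were Fgfr2 (r = 0.92), Edn1 (r = 0.89) and Mfsd8 (r = 0.85). For Csf1 they were Nhsl2, Emilin1 and Tek (r = 0.97, 0.96 and 0.96), whose r was between 0.67 and 0.71 without bexarotene replicate 1. For Csf2ra they were Fkbp7, Adamts17 and Slco2b1 (r = 0.93, 0.92 and 0.92), and for S100a8, at its low counts, Grhl3, Tln1 and Basp1 (r = 0.91, 0.91 and 0.89). Values near 1 arise among 15504 genes over 12 tumors, and all tumors share the same counting.

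Markers of other cell types were high in 1 of the tumors that stood out for these genes. In bexarotene replicate 1, the highest tumor for Csf1, Csf2ra and Csf3r, all 10 monocyte and macrophage markers and all 7 fibroblast and endothelial markers were at their highest among the 12 tumors. So were 5 of 6 dendritic cell markers, which summed to 6.92 FPKM in that tumor and to 1.09 to 2.56 FPKM in the others. Summed monocyte and macrophage markers ranged from 220 to 1874 FPKM in bexarotene tumors, from 229 to 593 FPKM in control tumors and from 287 to 701 FPKM in MSU-42011 tumors, and none of the 10 was at 0. Summed fibroblast and endothelial markers ranged from 63.5 to 2494 FPKM, from 35.7 to 142 FPKM and from 62.3 to 158 FPKM in the same order. MSU-42011 replicate 2, the highest tumor for Csf2rb, had the lowest sums of its group, with 287 FPKM for macrophages and 62.3 FPKM for fibroblasts and endothelium. Control replicate 2, the highest tumor for S100a9, Ly6g and Retnlg, had the lowest fibroblast and endothelial sum of the 12 tumors, at 35.7 FPKM. The part of these cells in the values of Csf1, Csf2ra, Csf3r and Csf2rb was not tested.

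In the bexarotene comparison with control, 9 of 10 monocyte and macrophage markers and all 7 fibroblast and endothelial markers passed the filter. Of these, Ccr2 and Mrc1, and Col1a1, Dcn, Lum and Pdgfra, had an unadjusted edgeR p under 0.05 in the direction of bexarotene. The share over all genes tested was 6.44%. Without bexarotene replicate 1, no gene of either list had an unadjusted p under 0.05 in this comparison. The median log2 fold change of the macrophage list was 0.83 with all tumors and -0.18 without bexarotene replicate 1, and that of the fibroblast and endothelial list was 2.20 and 0.16. Adjusted p was at least 0.762 for all of them. In MSU-42011 against control the medians were -0.13 and 0.091.

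The other cell lists were read for cells that also carry these receptors. Of 7 mast cell and basophil markers, Ms4a2 and Fcer1a had no read and none passed the filter. Of 4 eosinophil markers, 1 passed (Ccr3), and Prg2 had no read. Of 6 dendritic cell markers 2 passed, and of 6 T and NK cell markers 5 passed. Among the latter, Cd3g had an unadjusted p under 0.05 between bexarotene and control tumors (log2 fold change -1.03, SE 0.40, edgeR adjusted p = 0.762), against 6.44% of all genes tested. Without bexarotene replicate 1, none of these T and NK cell genes did. Of 12 squamous epithelium markers, which share S100a8 and S100a9 with neutrophils, 3 passed. The summed level of the 12 was 4.31 to 5.95 FPKM in control, 5.51 to 6.86 FPKM in MSU-42011 and 4.38 to 20.1 FPKM in bexarotene tumors. The 20.1 FPKM was that of bexarotene replicate 1, and the other bexarotene tumors were at 4.38 to 5.47 FPKM, within the control range. All 7 mammary epithelium markers passed, and Krt19 alone had an unadjusted p under 0.05, between the agonists (log2 fold change -5.51, SE 1.75, edgeR adjusted p = 0.997), against 3.95% of all genes tested. Without bexarotene replicate 1, Krt19 did not, whereas Krt8 and Krt18 did between the agonists and Krt18 did for MSU-42011 against control, all in the direction of lower values in MSU-42011 tumors. Of the 15619 genes then tested, 479 had such a p between the agonists and 411 for MSU-42011 against control. All 5 red blood cell genes, a sign of blood in the tumor, passed with sums of 391 to 1025, 122 to 700 and 288 to 762 FPKM in the same order. The summed level of S100a8, S100a9, Ly6g and Retnlg was 0.105 to 4.34 FPKM in control, 0.474 to 2.05 FPKM in MSU-42011 and 0.559 to 1.62 FPKM in bexarotene tumors.

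**Figure D5:**
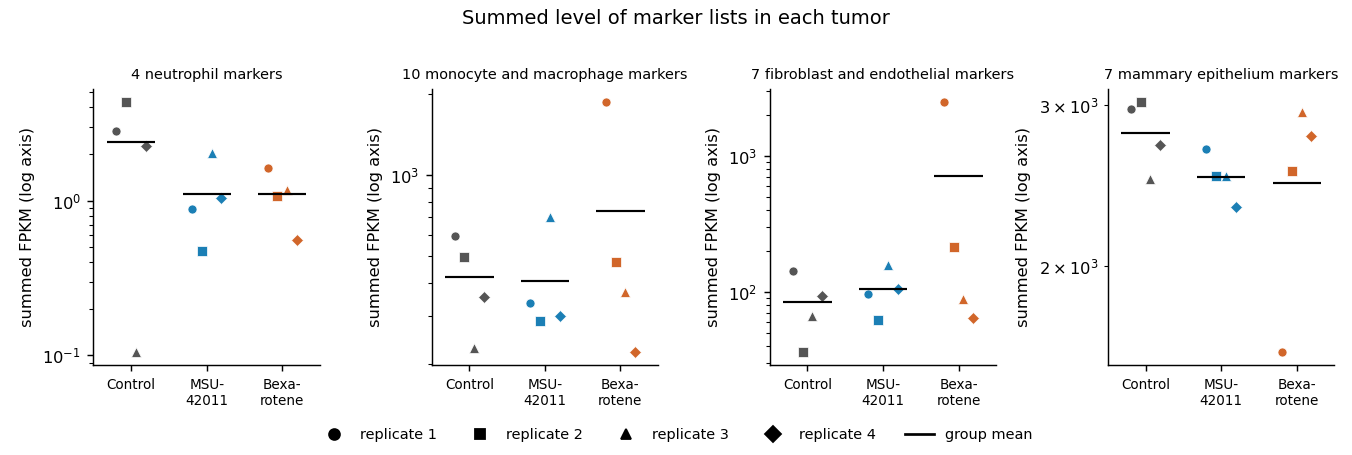
Summed FPKM (vertical axes, logarithmic) of the 4 neutrophil markers, 10 monocyte and macrophage markers, 7 fibroblast and endothelial markers and 7 mammary epithelium markers in each tumor, 1 point per tumor with a bar at the group mean. Neutrophil markers reach at most 4.34 FPKM in every tumor and spread most in the control group, while bexarotene replicate 1 is the highest tumor for macrophage and fibroblast markers and the lowest for mammary epithelium markers.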

How the data were processed

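Poly(A) RNA-seq of 12 mammary tumors was analyzed, with 4 tumors per diet, grouped by their titles. The authors deposited raw read counts per gene and FPKM values, the latter scaled by them to gene length and sequencing depth. The submitters' processing notes name STAR 2.6.1d, featureCounts 1.5.0-p3 and DESeq2. The genome build and strand setting were not given in the sources used here. The deposited coordinates equal those of GENCODE M21 (GRCm38) for 98.3% of 54495 genes and for 9 of the 10 genes, and Csf2ra is the exception.

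Counts were normalized by TMM and tested with edgeR 4.0.16 (R 4.3.3) after filterByExpr, in 1 model with a mean per group and no covariate. The test was checked on simulated counts that had the same dispersion for every gene and no outlying tumor. That check therefore does not cover a tumor such as bexarotene replicate 1. Alternatives were DESeq2 1.42.0 with and without its Cook's distance filter, limma 3.58.1 on log2 FPKM, other filters and size factors, robust fits, the replicate number as a block, the groups compared fitted alone, and each tumor omitted. Exact permutation tests used log2 of normalized CPM plus 0.5, and correlations of 9 pairs used 100000 resamples.

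The 10 genes and 16 further gene lists (161 genes) were chosen with earlier results of these data known. Named were the 10 genes, list genes that act directly with them, up to 3 genes per list by the smallest p of any difference, and the 3 genes most alike in pattern to each gene tested. Genes with an unadjusted p under 0.05 named outside this rule (Krt8, Krt18 and Pdgfra) were chosen after their values were seen, as were list genes named for having few or no reads. Ltf, Pglyrp1, Padi4 and Prtn3 were likewise named after their values were seen. Lists are described by counts, medians and summed levels only. A sum can rest largely on 1 gene. Col1a1 made up 70.1% of the summed CPM of the fibroblast and endothelial list, and Krt10 62.8% of that of the squamous list. Promoter sequences are from RefSeq (GRCm38.p6).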

Additional observations from a re-analysis of the deposited data

Results flagged for a closer look

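Values of 1 tumor far from the other 3 of its group were sought with Dixon's ratio in 54 sets of 4 tumors, covering the 10 genes, 8 genes that act directly with them and the ratio of Csf2rb to Csf2rb2, and 10 sets exceeded its 95% critical value. Chance alone flags about 1 in 20 where values are continuous and normal, and this rate does not hold for sets of low counts. Where 1 tumor has reads and the other 3 have none, the ratio is 1 by construction. In 8 of them the distant tumor had at most 11 counts. These were Ly6g in control replicate 2 (ratio 1, 3 counts), Retnlg in control replicate 2 (ratio 0.837, 7 counts), MSU-42011 replicate 1 and bexarotene replicate 1 (ratio 1, 1 count each), Csf2 in MSU-42011 replicate 3 (ratio 1, 2 counts), Cxcr2 in control replicate 2 (ratio 0.843, 11 counts), and Cxcl5 in control replicate 4 (ratio 1, 4 counts) and MSU-42011 replicate 4 (ratio 1, 1 count). Csf2ra was distant in bexarotene replicate 1 (ratio 0.943, 70.3 CPM against 39.4 to 40.7 CPM in the other 3). Csf1 in the same tumor was not flagged on the log2 scale, although it was at 2.77-fold the level of the next tumor. The log2 ratio of Csf2rb to Csf2rb2 was distant in MSU-42011 replicate 2 (ratio 0.957), where 375 and 10 counts were found.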

How the results depend on the processing

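The log2 fold changes of S100a8 and S100a9 against control kept their direction under every alternative run, as did those of Csf1, Csf3r and Csf2ra for bexarotene against control, and no alternative gave any of the 6 genes fitted an adjusted p under 0.05 (for Csf2ra in bexarotene tumors against control, 0.397 to 0.978). For MSU-42011 against control, Csf1 turned from -0.016 to 0.038 (limma, FPKM plus 1, filtered or not) and 0.039 (FPKM plus 0.1), Csf2rb for bexarotene against control turned from 0.31 to -0.029 and -0.18 under the same settings, and the causes were not tested.

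Ranges over all alternatives, the fits with 1 tumor omitted among them, were as follows. The log2 fold change for MSU-42011 against control ran from -0.065 to 0.066 for Csf1, -0.083 to 0.51 for Csf3r, -0.029 to 0.14 for Csf2ra and -0.44 to 1.06 for Csf2rb. For bexarotene against control, Csf2rb ran from -0.87 to 0.80. For MSU-42011 against bexarotene, the ranges were -0.17 to 0.92 for S100a8, -0.71 to 0.092 for Csf3r and -0.74 to 1.43 for Csf2rb. The number of the 10 genes at the smallest permutation p ran from 0 to 1 for both agonists against control (S100a9 without control replicate 3, and Csf2ra lost without bexarotene replicate 1 or any control tumor), and was 0 for bexarotene against control on log2(FPKM + 0.1). The number of pairs with an adjusted permutation p under 0.05 was 3 after group means were subtracted. The r of Csf3 with Csf3r turned to -0.11 without the 2 farthest tumors, and that of Csf2ra with Csf2rb to -0.60 without the 2 farthest tumors and -0.28 without bexarotene replicate 1. The within-group r, with bexarotene replicate 1 included, was 0.75 for S100a8 with Csf3r, 0.85 for Csf1 with Csf1r and 0.74 for Csf3r with Csf2rb.

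Over all genes, edgeR with its filter called 0 in each comparison, and 0 to 1 with 1 tumor left out for bexarotene against control and for any difference (1 without MSU-42011 replicate 2). Without the filter it also called 0 in each, but with 1 tumor left out as well it called 149 genes for any difference without bexarotene replicate 3 and 170 without bexarotene replicate 4, and 0 to 2 in every other such fit. DESeq2 called 1, 6 and 25 genes in the 3 comparisons and 5 for any difference with its Cook's distance filter, and 7, 7, 41 and 11 without it. The replicate number as a block (replicate block) gave 0 calls in each comparison with the filter, and without the filter 3 for any difference, 1 for each agonist against control and 2 between the agonists, with log2 fold changes of 0.0022 for Csf1 (MSU-42011 against control) and -0.038 for Csf2rb (bexarotene against control). Tumors with the same number correlated between -0.352 and 0.349. The titles do not state that the numbers pair the tumors, and without a reference from unmatched numbers these correlations cannot decide it. The fits of S100a9 without a filter and with 1 tumor left out or the block were added after seeing the data. Low counts limit S100a8, S100a9, Ly6g, Retnlg, Csf2 and Csf3, each at 20 counts or fewer in every tumor.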
